A study of Mus musculus with 9 samples.

Results

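Interferon-stimulated genes are switched on in most cell types by interferons, the cytokines of antiviral defence. The set described here holds 9 of them, chosen by gene symbol: Stat2, Irf7, Ifit1, Ifit3, Mx2, Rsad2, Ifitm3, Isg15 and Gbp2. They were taken from a table of RNA sequencing counts of mouse hippocampus in which transcript rows summed to 38911 genes. All 9 libraries came from adult BALB/c mice kept specific-pathogen-free, with 3 mice in each of 3 groups. The CLP+CCLF mice had the cecum ligated and punctured (CLP), an operation used to model abdominal sepsis, and were given 200 mg/kg of Cuscuta chinensis Lam. flavonoids (CCLF). The CLP mice underwent that surgery alone. Sham mice underwent a sham operation. The table's columns call the groups CCLF, SAE (for sepsis-associated encephalopathy) and CTL, and each library is described here by the group its label gives. No gene was targeted in the study, so the counts hold no direct check of the labels. The groups are used as labelled, and had the names SAE and CTL been exchanged, every fold and every direction given below would be reversed. The time between surgery and sampling is not given in the sources used here. Each animal gave 1 library, so the spread below is the spread between animals.

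Library totals ran from 4626519 to 4895474 counts, at which a gene with 0 counts may still have had up to 3 counts, or 0.613 to 0.648 CPM (counts scaled to a common library size). The comparison of CLP with sham used edgeR's quasi-likelihood test on the 6 libraries of those groups, with p-values adjusted by the Benjamini-Hochberg method over 8213 tested genes and a call at an adjusted p under 0.05. The CLP+CCLF libraries are described without a test. Levels are in CPM as mean ± SD of 3 libraries, and each log2 fold is a difference, CLP minus sham, ± its approximate standard error. The contrast was broad: 47.6% of tested genes were called, and the median log2 fold of all tested genes was 0.00491. Neuronal markers summed to 6926 to 7012 CPM in the CLP libraries and 6102.5 to 6325 CPM in the sham libraries. Most of this was Slc17a7, with a mean of 6324 CPM in CLP and 5624 CPM in sham. Snap25, Syt1 and Rbfox3 had at most 3.32 CPM in any CLP or sham library. They had 7, 13 and 25 transcript rows in that order, and their low counts cannot be read as absence of their RNA. The hippocampal markers Wfs1 and Neurod6 were present, while Prox1 and Fibcd1 had too few counts for a test and Spink8 was listed at 0.

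As background, type I interferons bind a cell-surface receptor whose kinases phosphorylate STAT2. Phosphorylated STAT2 enters the nucleus with IRF9 in the complex ISGF3, which binds an element called ISRE in the promoters of its target genes. Type II interferon acts mainly through a different element, GAS. In the brain, microglia, astrocytes, endothelial cells and neurons can all respond, and systemic infection or bacterial endotoxin is known to raise many of these genes there.

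The promoters of most members held 1 shared run of letters. RefSeq promoter windows on GRCm38.p6, which run from 250 bases before to 50 bases after each gene's start, were found for 8 of the 9 members (Mx2 had no entry). Letters of the ISRE core, GAAANNGAAA on either strand, stood in 7 of the 8 windows (87.5%), against 1131 of all 32851 windows (3.44%). GAS letters, TTCNNNGAA on either strand, stood in 1 of the 8 (12.5%), that of Ifitm3, against 8.3% of all windows. The Irf7 window held neither. In Ifitm3 the ISRE letters began at bases 3 and 20 of the transcript, with the GAS letters overlapping the match at base 20. The other matches lay before the start. The 250 bases before the start of the 6 genes concerned are shown 5′ to 3′ on the gene's own strand, with ISRE letters in capitals, because they set genes of many roles side by side with 1 shared element. They lie at chr10:128270248-128270497 on the + strand for Stat2, chr19:34640639-34640888 on the + strand for Ifit1, chr19:34583279-34583528 on the + strand for Ifit3, chr12:26456453-26456702 on the − strand for Rsad2, chr4:156200819-156201068 on the − strand for Isg15 and chr3:142620413-142620662 on the + strand for Gbp2.
Stat2: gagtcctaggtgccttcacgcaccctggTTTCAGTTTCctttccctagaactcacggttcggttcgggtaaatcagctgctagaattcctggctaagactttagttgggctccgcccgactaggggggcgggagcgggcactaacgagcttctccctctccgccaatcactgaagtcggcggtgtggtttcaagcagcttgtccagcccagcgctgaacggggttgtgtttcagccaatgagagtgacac
Ifit1: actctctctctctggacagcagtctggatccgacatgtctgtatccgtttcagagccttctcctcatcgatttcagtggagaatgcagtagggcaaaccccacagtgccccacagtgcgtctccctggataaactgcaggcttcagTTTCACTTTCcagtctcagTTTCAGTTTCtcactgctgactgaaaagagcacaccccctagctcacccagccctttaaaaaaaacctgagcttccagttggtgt
Ifit3: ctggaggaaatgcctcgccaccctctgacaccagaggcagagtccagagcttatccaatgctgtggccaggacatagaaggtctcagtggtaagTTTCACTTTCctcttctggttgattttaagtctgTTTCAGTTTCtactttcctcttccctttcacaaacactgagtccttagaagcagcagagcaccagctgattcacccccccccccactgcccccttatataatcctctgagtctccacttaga
Rsad2: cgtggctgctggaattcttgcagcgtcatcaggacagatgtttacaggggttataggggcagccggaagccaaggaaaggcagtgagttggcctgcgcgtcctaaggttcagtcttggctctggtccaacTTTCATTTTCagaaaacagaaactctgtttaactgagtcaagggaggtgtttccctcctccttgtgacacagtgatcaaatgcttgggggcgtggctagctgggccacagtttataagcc
Isg15: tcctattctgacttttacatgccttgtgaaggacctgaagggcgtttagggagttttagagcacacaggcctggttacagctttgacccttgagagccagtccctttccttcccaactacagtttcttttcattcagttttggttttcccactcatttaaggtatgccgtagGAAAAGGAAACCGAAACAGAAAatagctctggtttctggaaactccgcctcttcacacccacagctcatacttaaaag
Gbp2: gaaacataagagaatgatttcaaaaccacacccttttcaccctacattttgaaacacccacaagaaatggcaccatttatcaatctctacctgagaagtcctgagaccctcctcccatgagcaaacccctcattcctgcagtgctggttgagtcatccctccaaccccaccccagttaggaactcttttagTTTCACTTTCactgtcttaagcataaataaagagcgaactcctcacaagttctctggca
Ifit1 and Ifit3, both on chromosome 19, each held 2 copies. In Ifit1 these began 104 and 85 bases before the start, and in Ifit3 156 and 122 bases before it. Isg15 held 3 overlapping copies that began 78, 72 and 66 bases before the start. Gbp2 and Rsad2 held 1 copy each, 59 and 120 bases before the start, and that of Stat2 lay farthest away, at 222 bases. Among tested genes with a window, 202 of 6252 (3.23%) held the ISRE letters, as did 70 of the 1515 called lower in CLP (4.62%). Over all genes with a window, tested or not, the share was 1079 of 27025 (3.99%). The letters were far more common among the other interferon-pathway genes followed below, where 45 of 116 with a window held them (38.8%). They stood in 9 of the 24 called lower in CLP (37.5%) and in 2 of the 13 tested but not called lower (15.4%). Of the 79 that could not be tested, 34 held them (43%). A match describes the letters and does not show that a factor binds there.

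In the libraries labelled CLP the tested members were lower than in those labelled sham. This direction is the opposite of the rise given above as background for systemic infection. Whether the labels are the right way round was not tested. All 7 that could be tested, Stat2, Ifit1, Mx2, Rsad2, Ifitm3, Isg15 and Gbp2, were called lower in CLP, against 23.9% of all tested genes called in that direction. In each of the 7, all 3 CLP libraries lay below all 3 sham libraries, against 27.1% of all tested genes. Their median log2 fold was −3.71, that of Ifitm3, which was 13.05 times lower in CLP. A log2 fold under −1 together with a call was found in all 7 and in 8.92% of all tested genes. Each of the 7 passed the filter on low counts in CLP and in sham libraries alike. The remaining members, Ifit3 and Irf7, had too few counts for a test. A lower count in bulk tissue may mean fewer cells of a type or less RNA per cell, and these cannot be told apart.

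Stat2, the signal transducer of the type I interferon pathway, had 585, 522 and 533 counts in the CLP libraries, against 1695, 2108 and 1492 in the sham libraries. The CLP libraries lay close together, and the lowest sham library had more than any of them. The level was 115 ± 7.47 CPM in CLP and 372 ± 64.3 CPM in sham, a log2 fold of −1.71 ± 0.15 (adjusted p = 0.000272, edgeR's quasi-likelihood test). This was the smallest of the 7 differences, and Stat2 ranked 341 of 8213 genes from the lowest fold. Irf7, the transcription factor that amplifies type I interferon production, was listed at 0 in each of the 9 libraries and in each of its 4 transcript rows, so no statement on it can be made.

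Ifit1, which binds viral RNA that lacks the host's cap methylation, had 29, 49 and 19 counts in the CLP libraries, against 490, 575 and 290 in the sham libraries. The lowest sham library held several times the highest CLP count. Its level averaged 6.83 ± 3.33 CPM in CLP and 95.3 ± 31.2 CPM in sham (log2 fold −3.82 ± 0.48, adjusted p = 0.00333, edgeR's quasi-likelihood test). Ifit3, of the same family, whose human counterpart binds IFIT1, had 1, 3 and 2 counts in the CLP libraries, against 13, 10 and 3 in the sham libraries. The groups met at 3 counts and Ifit3 did not pass the filter. Summed over libraries it had 6 counts in CLP and 26 in sham, a ratio of sham to CLP of 4.27 with a 95% exact counting interval of 1.72 to 12.7, which covers counting error only. Reads that Ifit3 shares with its near-identical copy Ifit3b, which had 0 to 2 counts a library, could have been split between them.

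Rsad2 encodes viperin, an enzyme that makes a chain-terminating nucleotide. Its counts were 29, 27 and 46 in the CLP libraries, against 474, 658 and 273 in the sham libraries. The sham libraries spread widely, yet all lay above the CLP libraries. The level was 7.11 ± 2.04 CPM in CLP and 98.7 ± 40.2 CPM in sham (log2 fold −3.80 ± 0.52, adjusted p = 0.00444, edgeR's quasi-likelihood test). Mx2 belongs to the dynamin-like GTPases that act against viruses, and its only row is a transcript that RefSeq classes as non-coding. It had 16, 13 and 18 counts in the CLP libraries, against 117, 168 and 104 in the sham libraries, again with no overlap. Mean levels were 3.28 ± 0.471 CPM in CLP and 27.3 ± 6.86 CPM in sham (log2 fold −3.05 ± 0.23, adjusted p = 7.82e-11, edgeR's quasi-likelihood test). Ifitm3, a membrane protein that blocks fusion of viruses in endosomes, had 200, 199 and 169 counts in the CLP libraries, against 2476, 2606 and 2251 in the sham libraries. Both groups were tight, and the gap between them was far wider than either group's spread. Its level was 39.8 ± 4.36 CPM in CLP and 515 ± 42.3 CPM in sham (log2 fold −3.71 ± 0.08, adjusted p = 1.59e-17, edgeR's quasi-likelihood test), the smallest p-value among the members.

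Isg15 encodes a ubiquitin-like protein that is attached to other proteins or secreted. It had 23, 28 and 19 counts in the CLP libraries, against 252, 292 and 175 in the sham libraries. No CLP library came near the sham range. The level averaged 4.91 ± 1.03 CPM in CLP and 50.5 ± 12.7 CPM in sham (log2 fold −3.37 ± 0.22, adjusted p = 2.72e-09, edgeR's quasi-likelihood test). Gbp2, a guanylate-binding protein of defence against intracellular microbes that responds strongly to type II interferon, showed the widest difference among the members. Its counts were 56, 68 and 56 in the CLP libraries, against 5191, 7978 and 3508 in the sham libraries. Levels were 12.6 ± 1.65 CPM in CLP and 1170 ± 466 CPM in sham, 93.4 times lower in CLP (log2 fold −6.55 ± 0.52, adjusted p = 0.000699, edgeR's quasi-likelihood test). It ranked 19 of 8213 tested genes from the lowest fold. Reads could have been split among the related Gbp genes and among the Ifitm genes, so the levels of Gbp2 and Ifitm3 carry that uncertainty.

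**Figure D1:**
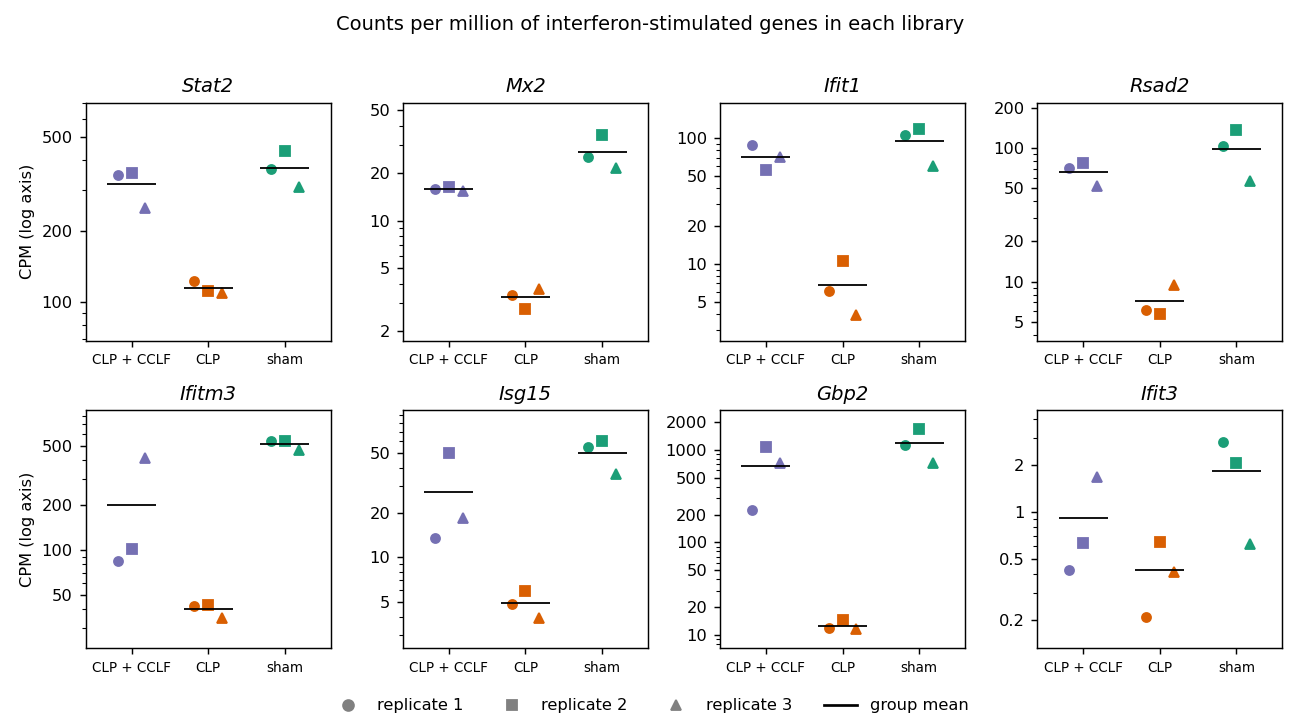
Level of each member in CPM, on a log axis, with 1 point for each of the 9 libraries in the order CLP+CCLF, CLP and sham and a line at each group mean; Irf7, listed at 0, is not drawn. In Stat2, Ifit1, Rsad2, Mx2, Ifitm3, Isg15 and Gbp2 the 3 CLP libraries sit below every other library, while the Ifit3 points of all groups overlap.

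Within the sham group the tested members kept 1 order of libraries. Replicate 2 was the highest and replicate 3 the lowest sham library in all 7 tested members. That order was found in 20 of the 34 other interferon-pathway genes called lower in CLP (58.8%), in 275 of the 733 genes called with a log2 fold under −1 (37.5%) and in 1543 of all 8213 tested genes (18.8%). Gbp2 had 7978 counts in sham replicate 2 and 3508 in sham replicate 3, and Rsad2 had 658 and 273 in the same pair. The SD of log2(CPM + 0.5) within a group had a median over the 7 members of 0.18 in CLP and 0.39 in sham, against 0.29 in CLP and 0.24 in sham over the 733 genes. The CLP libraries had no order common to all 7 members, though part of the sham order recurred. Their highest was replicate 1, 2 and 3 in 1, 4 and 2 members, and their lowest was replicate 2 and 3 in 2 and 5 members. In CLP+CCLF the highest was replicate 1, 2 and 3 in 1, 5 and 1 members, and the lowest in 3, 1 and 3.

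The CLP+CCLF libraries were spread unevenly. Of the 21 values of the 7 tested members in these libraries, 13 lay between the highest CLP and the lowest sham library, 8 lay at or above the lowest sham library, and none lay at or below the highest CLP library. The share in between was 61.9%, against 64.9% of the 2160 values of the 720 genes that were called with a log2 fold under −1 and whose CLP and sham libraries did not overlap. Stat2 had 1635, 1677 and 1187 counts in the CLP+CCLF libraries, and Ifit1 had 417, 263 and 334. Rsad2 had 337, 364 and 248 counts there. In these 3 genes some CLP+CCLF libraries reached the sham range and others fell short of it. Mx2 had 75, 78 and 73 counts, all in between, and its highest level was only 1.07 times its lowest.

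Ifitm3, Isg15 and Gbp2 differed several times over between animals given the flavonoids. Ifitm3 had 398, 479 and 1971 counts in the CLP+CCLF libraries, so that replicate 3 stood well above the other libraries of its group. Isg15 had 64, 239 and 87 counts, and here replicate 2 stood out. Gbp2 had 1069, 5023 and 3444 counts, and replicate 1 was the low one. The highest level was 4.95 times the lowest for Ifitm3, 3.74 times for Isg15 and 4.70 times for Gbp2, against 1.41 times for Stat2. Over the 7 tested members the SD of the log2 level, taken as above, had a median of 0.33 in CLP+CCLF. Over the 733 genes called with a log2 fold under −1 this median was 0.35. The medians were thus close, but among the members the SD ran from 0.05 for Mx2 to 1.26 for Ifitm3. It was 1.16 for Gbp2 and 0.98 for Isg15, and 0.28 to 0.33 for Stat2, Rsad2 and Ifit1. How widely the SD ranged over the 733 genes was not examined. The group means in CLP+CCLF were 200.2 ± 187 CPM for Ifitm3, 27.4 ± 20.1 CPM for Isg15 and 670.5 ± 420 CPM for Gbp2, with an SD close to the mean for Ifitm3. Ifit3 had 2, 3 and 8 counts in these libraries.

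**Figure D2:**
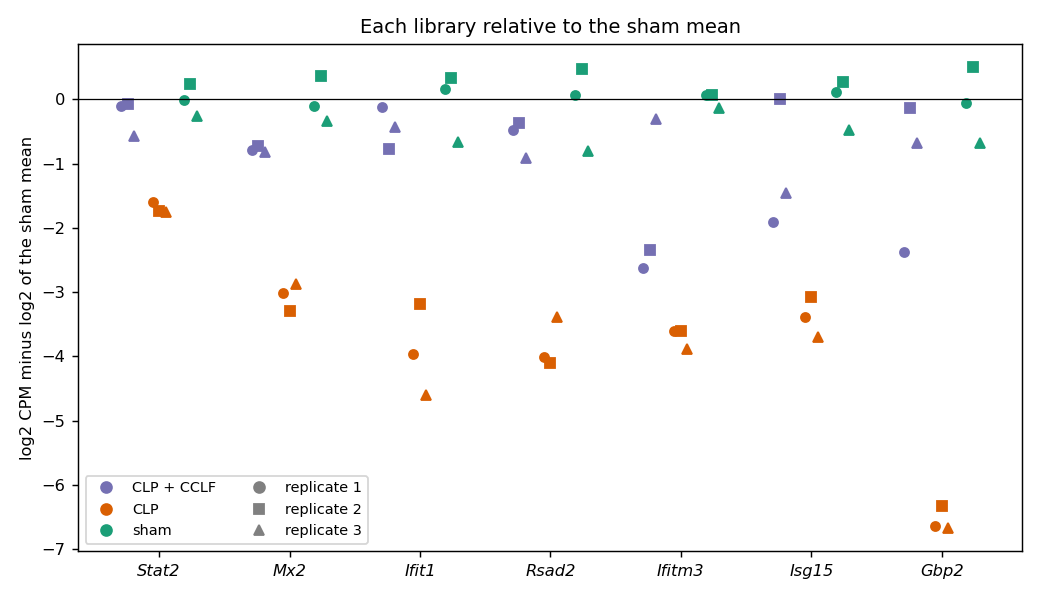
Level of each tested member in every library as log2 of its ratio to the sham mean, with circles, squares and triangles for replicates 1, 2 and 3 of CLP+CCLF, CLP and sham. Mx2 is tight in the CLP+CCLF group, while Ifitm3, Isg15 and Gbp2 spread over several fold there, each with another replicate apart from the rest.

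Around the members, 146 other genes of the interferon pathway were followed from lists by role. Of these, 49 could be tested, and 34 were called lower and 2 higher in CLP, with a median log2 fold of −1.78 over the 49. The shares over all tested genes were 23.9% lower and 23.7% higher. Among the 27 that passed the low-count filter in CLP and in sham alike, 21 were lower and 2 higher. The other 13 lower genes passed only through the sham libraries, so that they could be called in 1 direction only, and the median rests partly on them. The 20 other interferon genes themselves, the ligands, were all untested: 18 were listed at 0 in the CLP and sham libraries, and Ifna6 and Ifng had 1 count each, both in a sham library.

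At the receptors and kinases the picture was mixed. Ifngr1, which binds type II interferon, was lower in CLP at 60.6 ± 3.00 CPM, against 93.5 ± 13.3 CPM in sham (log2 fold −0.64 ± 0.10, edgeR adjusted p = 6.41e-06). Its partner Ifngr2, the signalling chain, was higher in CLP at 239.9 ± 2.69 CPM, against 182 ± 3.15 CPM in sham (log2 fold 0.38 ± 0.05, edgeR adjusted p = 2.35e-06). Ifnar1, a chain of the type I receptor, had 35.6 ± 4.36 CPM in CLP and 40.1 ± 6.90 CPM in sham and was not called (edgeR adjusted p = 0.267). The kinase Jak2, with 14.2 ± 3.25 CPM in CLP and 10.9 ± 0.323 CPM in sham, was not called either (log2 fold 0.37 ± 0.19, edgeR adjusted p = 0.116), nor were Irf1 and Irf2 (edgeR adjusted p = 0.329 and 0.909) or Irf3 (0.0733). Irf9, which joins Stat2 in ISGF3, had too few counts for a test, with 8, 13 and 11 in the CLP libraries and 3, 5 and 8 in the sham libraries.

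Tested genes of ISG15 conjugation and of nucleic acid sensing were mostly lower too. All 4 genes of the ISG15 conjugation cycle were lower in CLP, with a median log2 fold of −1.90. Uba7, the activating enzyme for Isg15, had 16.6 ± 2.34 CPM in CLP and 63.2 ± 2.93 CPM in sham (log2 fold −1.94 ± 0.12, edgeR adjusted p = 3.14e-12). Usp18, which removes Isg15 and dampens receptor signalling, had 4.21 ± 0.830 CPM in CLP and 29.3 ± 4.63 CPM in sham (log2 fold −2.81 ± 0.20, edgeR adjusted p = 2.65e-11). The ligase Herc6 fell by 1.85 on the log2 scale, and the conjugating enzyme Ube2l6 fell by 1.71. Of the sensors of foreign nucleic acid and their signalling partners, 5 passed the filter in both groups and 4 of these were lower. Ddx58, which encodes the RNA sensor RIG-I, had 27.5 ± 3.46 CPM in CLP and 99.5 ± 19.1 CPM in sham (log2 fold −1.86 ± 0.14, edgeR adjusted p = 7.97e-08), and the kinase Tbk1 a smaller difference of −0.42 ± 0.06. Zbp1, a sensor of Z-form nucleic acid, had 3 counts in all in CLP and 89 in sham, a ratio of sham to CLP of 29.2 with a 95% exact counting interval of 9.68 to 144.3, and passed the filter only through the sham libraries.

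Among the GBP and IRG families of interferon-inducible GTPases, to which Gbp2 belongs, 3 other genes passed the filter in both groups, Gbp5, Igtp and Irgm2, and all 3 were lower in CLP. A further 5 called lower passed only through the sham libraries. Irgm2 had 18.3 ± 2.59 CPM in CLP and 155.9 ± 26.2 CPM in sham (log2 fold −3.10 ± 0.14, edgeR adjusted p = 5.32e-10). Gbp3, a relative of Gbp2, had 2, 0 and 0 counts in CLP and 3, 4 and 3 in sham, and Gbp2b was listed at 0. Mx1 had 0.916 ± 0.545 CPM in CLP and 15.02 ± 6.35 CPM in sham (log2 fold −4.02 ± 0.44, edgeR adjusted p = 3.02e-06). Ifitm2 had 0.282 ± 0.327 CPM in CLP and 7.20 ± 1.76 CPM in sham (log2 fold −4.57 ± 0.51, edgeR adjusted p = 8.29e-08), while Ifitm1 had 0 or 1 count in each library and Ifit2 was listed at 0. Mx1, Ifitm2 and Ifitm7 passed the filter only through the sham libraries and could be called in 1 direction only, so they add no independent direction for the Mx and IFITM families.

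Of the remaining effectors 17 were tested and 13 were called lower. All 8 that passed the filter in both groups were among these, and the other 5, Mx1 included, passed only through the sham libraries. Parp12, an antiviral ADP-ribosyltransferase, had 48.7 ± 3.80 CPM in CLP and 176.6 ± 9.32 CPM in sham (log2 fold −1.87 ± 0.08, edgeR adjusted p = 7.79e-16). Bst2, the tethering protein that holds budding viruses, had 13.5 ± 2.58 CPM in CLP and 94.7 ± 14.9 CPM in sham (log2 fold −2.82 ± 0.14, edgeR adjusted p = 6.54e-12). Oas1b was the single tested gene of the OAS and RNase L list and fell by 2.45 on the log2 scale (SE 0.24). Among negative regulators the phosphatase Ptpn2, which dephosphorylates JAK kinases and STATs, was higher in CLP at 54.1 ± 5.35 CPM, against 30.1 ± 3.98 CPM in sham (log2 fold 0.84 ± 0.12, edgeR adjusted p = 2.97e-06). Pias1 and Samhd1 were not called.

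**Figure D3:**
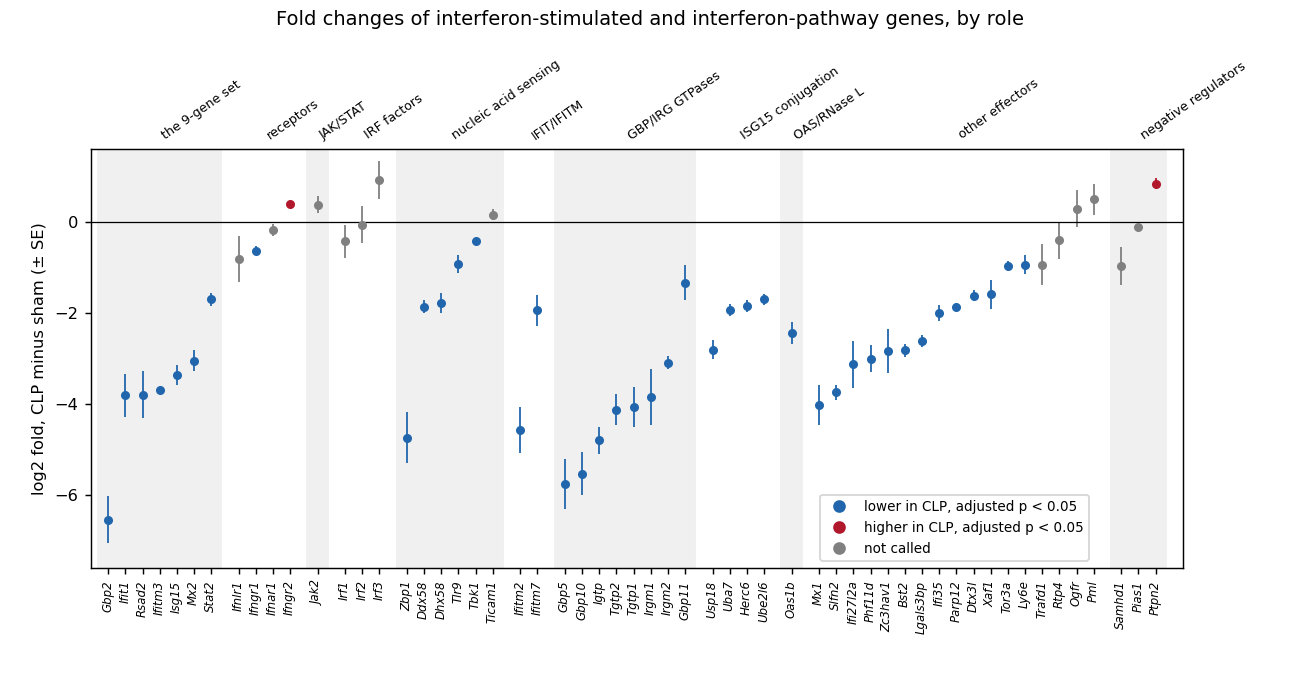
Log2 fold, CLP minus sham, of every tested gene in each list of interferon-pathway genes, with the tested members at the left, bars for ± SE, blue points for genes called lower in CLP, red for higher and grey for not called. The tested members lie between Gbp2 at −6.55 and Stat2 at −1.71, and the 2 genes called higher are Ifngr2 at 0.38 and Ptpn2 at 0.84.

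Whether a gene could be tested differed with the number of transcript rows it had in the table. All 7 tested members had 1 row each, while Ifit3 had 5 rows, 3 of them with a count, and Irf7 had 4. Of the 126 other pathway genes without the ligands, 29 of the 32 with 1 row were tested, against 20 of the 94 with several rows. Jak1, a kinase used by most cells, had 7 rows and 1 to 5 counts in each library. Low or missing counts of Irf7, Ifit3 and other genes with several rows cannot be read as absence of their RNA. The part of row number in the result was not tested.

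**Figure D4:**
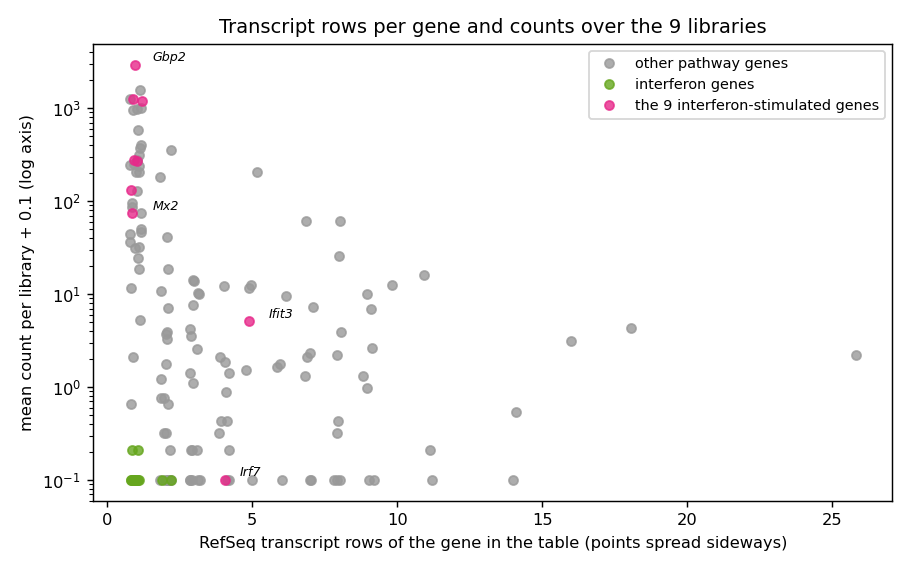
Mean counts per library of the members and the other interferon-pathway genes, on a log axis after adding a small constant, against the number of RefSeq transcript rows summed for each gene. Gbp2 and Mx2 have 1 row each, whereas Ifit3 and Irf7 have 5 and 4 rows and few or no counts.

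Marker genes of other cell types also differed between the groups. Neutrophil markers summed to 1.44 to 3.59 CPM in the CLP libraries and 48.4 to 71.3 CPM in the sham libraries, and both tested markers of 7, S100a8 and Ngp, were called lower in CLP, though they passed the filter only through the sham libraries and could be called in that direction only. S100a9 and Ly6g, which also mark neutrophils, were listed at 0 in the 6 libraries. Monocyte and macrophage markers summed to 47.4 to 52.7 CPM in CLP and 39.4 to 47.6 CPM in sham, with Mrc1 higher and Lyz2 lower in CLP as the tested 2 of 7, and Ccr2, Ly6c2, Plac8 and Cd163 listed at 0. Markers of T and natural killer cells summed to at most 0.422 CPM in CLP and 1.30 to 1.87 CPM in sham, with none of 6 testable and Cd3e, Cd8a and Klrb1c listed at 0. Homeostatic microglial markers summed to 769.5 to 834 CPM in CLP and 439 to 569.6 CPM in sham, and 6 of 6 tested were called higher in CLP, P2ry12 being listed at 0. Of these 6, Cx3cr1 and Siglech did not pass the filter through the sham libraries, and the other 4 passed it in both groups. Endothelial markers summed to 253.7 to 258.5 CPM in CLP and 257 to 304 CPM in sham, with Cldn5 lower, Flt1 and Kdr higher in CLP and Pecam1 listed at 0. Astrocyte markers summed to 3382 to 3450 CPM in CLP and 3217 to 3479 CPM in sham, with 3 of 5 tested lower (Aqp4 among them through the sham libraries only) and 1 higher in CLP. Most of these sums was Slc1a3, which was lower in CLP (mean 2558 CPM, against 2927 CPM in sham). Gfap was lower in CLP (3.83 against 26.8 CPM), and Gja1 was higher (850 against 390 CPM). Oligodendrocyte markers summed to 512 to 573 CPM in CLP and 233 to 252 CPM in sham, with 4 of 4 tested higher in CLP. Choroid plexus markers summed to 624 to 1257 CPM in CLP and 494 to 772 CPM in sham, with 1 of 4 tested higher in CLP, and red blood cell markers to 456 to 564.5 CPM in CLP and 582 to 602 CPM in sham, with 2 of 4 tested lower in CLP. The part of these cell types in the members' difference was not tested. Each marker named here as listed at 0 had several transcript rows, as Irf7 had, so its 0 cannot be read as absence of its RNA. Gfap and Aqp4 had 4 and 9 rows, and their low levels carry the same limit.

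The genes whose pattern over all 9 libraries was most like that of the members were found by Pearson's r between a gene's log2 level and the mean scaled log2 level of the 7 tested members, over 4651 other genes whose mean reached 10 CPM. The 6 highest were Igtp and Slfn2, both on the pathway lists, and Cep295, Gpr22, Fstl1 and Ccl5, with r between 0.988 and 0.992. All 9 libraries enter each r, and the CLP libraries lay apart in these genes as in the members, so r is given as a description. Ccl5, a chemokine that attracts T cells, had 230, 444 and 247 counts in CLP+CCLF, 2, 6 and 5 in CLP, and 453, 781 and 484 in sham, a log2 fold of −7.02 ± 0.46, CLP minus sham. Igtp, a GTPase of the IRG family, had 694, 1656 and 972 counts in CLP+CCLF, 64, 62 and 55 in CLP, and 1665, 2071 and 1264 in sham. Gpr22, an orphan receptor, had the same order of groups with a log2 fold of only −0.43 ± 0.04.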

How the data were processed

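RNA of 9 hippocampi was sequenced after depletion of ribosomal RNA, per the labels. The authors deposited whole-number counts per RefSeq transcript. Tools named in the submitters' processing notes are fastp and Salmon. Their versions, the index, the build and the strand setting are not given in these sources. All 120312 rows were named with the RefSeq table of GRCm38.p6, used for names only, and summed to 38911 genes, of which 22846 had a count. No row lacked a gene name.

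Genes were kept with filterByExpr, which asks for about 2.10 CPM in 3 libraries. Trimmed-mean (TMM) factors for library size ran from 0.983 to 1.02, and 3 CLP and 3 sham libraries were fitted with edgeR's robust quasi-likelihood F test. Each standard error is the size of the fold over the root of its F value. CPM levels use factors from all 9 libraries. Floors of 3 counts and counting intervals cover counting error only. Steps were tested on simulated counts. The members and the gene lists were chosen with earlier results of these data known. Named are all members, up to 4 tested genes with the smallest p-values of each list, near relatives of members, the markers that set a range or were at 0, and the 6 genes most like the members. Jak1, chosen after its values were seen, stands outside this rule. So do Gbp5, named for passing the filter in both groups, and Gbp11, named for its lost call. Ifna6 and Ifng, named as the only ligands with a count, stand outside it too.

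The labels only number the replicates, so the main fit paired no libraries. The alternatives were DESeq2 size factors, library totals alone, a test of all genes with a count, a minimum of 1 CPM in 3 libraries, limma-voom, DESeq2's Wald test, all 9 libraries fitted together, replicate number as a block, the highest transcript row alone, and each library left out in turn. Versions were DESeq2 1.42.0, edgeR 4.0.16 and limma 3.58.1 in R 4.3.3, and Python 3.11.15.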

Additional observations from a re-analysis of the deposited data

How the results depend on the processing

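Over the 15 alternatives the 7 tested members stayed lower in CLP with an adjusted p under 0.05, by edgeR's quasi-likelihood test, DESeq2 or limma-voom, and their highest adjusted p was 0.0282, for Rsad2. Without a filter Ifit3 was tested and called too (log2 fold −2.07 ± 0.69, adjusted p = 0.0175, edgeR's quasi-likelihood test), which makes 8 members. The other pathway genes called lower numbered 34 to 41, highest with no filter or with one of 1 CPM. Those called higher numbered 2 to 4 when 1 library was left out: 4 without CLP replicate 3, where Jak2 (adjusted p = 0.0201) and Irf3 (0.0448) were added, and 3 without sham replicate 2, where Irf3 was added (0.0378); each of these fits has fewer samples, and the cause was not tested. Without sham replicate 2 Gbp11 lost its call (adjusted p = 0.0577). Over all tested genes, same-numbered CLP and sham libraries did not deviate together (correlations of −0.013 to 0.027). Such a correlation over all genes cannot decide whether the numbers mark pairs, and the labels do not say. With replicate number as a block, 1958 genes were lower and 1934 higher, against 1966 and 1946 without it, and the members called numbered 7 in both. The standard error of each of the 7 was smaller with the block. It was 0.14 against 0.48 for Ifit1 and 0.10 against 0.52 for Gbp2, and changed least for Mx2 (0.22 against 0.23). Ifit3 and Irf7 had too few counts to pass the filter, and the cause was not tested.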
